A study of Mus musculus with 8 samples.

Results

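The loci of Homer1 and Camk2a, genes of the postsynaptic side of excitatory synapses, were examined in Sono-seq libraries of the mouse hippocampus. In Sono-seq, crosslinked chromatin is sheared by sound and sequenced with no pull-down, and open chromatin, which shears more readily, collects more reads. Both loci were taken as fixed windows on the mouse genome build mm9, 130 kb of chromosome 13 around Homer1 and 90 kb of chromosome 18 around Camk2a. Their listed peaks ran from position 94060281 to 94187616 in the Homer1 window and from 61071492 to 61159648 in the Camk2a window. They held 1 of the 11304 regions of the deposited count table, and that region lay in the Homer1 window. They also held 9 to 37 listed peaks per library in the Homer1 window and 9 to 41 in the Camk2a window.

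The libraries came from 8 adult male mice of strain C57BL/6, 2 months of age. The conditioned group of 4 mice received a single foot shock (2 s, 1.5 mA) that ended 2.5 min after they entered a chamber, and the hippocampus was taken 30 min after this contextual fear conditioning. The 4 control mice had the same 3 days of handling but no training, and their tissue was taken at a matching hour. The whole hippocampus was used, so that fewer cells with an open locus and less opening per cell cannot be told apart. No genetic change or drug was part of either group.

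Homer1 encodes a scaffold protein whose EVH1 domain binds proline-rich stretches of metabotropic glutamate receptors, inositol trisphosphate receptors and Shank proteins, and so ties receptors at the spine to calcium stores. The gene also gives a short form, Homer1a, which lacks the coiled coil that joins the long forms and is made within minutes to hours of neuronal activity as an immediate early gene product. Camk2a encodes the alpha subunit of calcium/calmodulin-dependent protein kinase II, one of the most abundant proteins of the postsynaptic density in forebrain excitatory neurons, whose activity is needed for long-term potentiation. Its mRNA is expressed at a high level in hippocampal pyramidal cells without training.

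The promoter of Homer1 is shown because the gene is activity-regulated and its upstream bases carry copies of TGACG, the core of the cAMP response element that CREB binds. RefSeq (GRCm38.p6) gives 2 start sites for Homer1 on the plus strand of chromosome 13, 4277 bp apart, and the 250 bases before each are printed 5′ to 3′ with TGACG in capitals. The first lies at chr13:93303507-93303756 and the second at chr13:93307784-93308033, both in GRCm38.p6 and not in mm9.
Homer1 first start: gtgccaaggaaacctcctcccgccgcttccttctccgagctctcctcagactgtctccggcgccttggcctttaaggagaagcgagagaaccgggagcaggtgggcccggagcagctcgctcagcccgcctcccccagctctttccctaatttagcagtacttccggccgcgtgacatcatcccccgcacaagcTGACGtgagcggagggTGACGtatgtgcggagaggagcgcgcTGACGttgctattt
Homer1 second start: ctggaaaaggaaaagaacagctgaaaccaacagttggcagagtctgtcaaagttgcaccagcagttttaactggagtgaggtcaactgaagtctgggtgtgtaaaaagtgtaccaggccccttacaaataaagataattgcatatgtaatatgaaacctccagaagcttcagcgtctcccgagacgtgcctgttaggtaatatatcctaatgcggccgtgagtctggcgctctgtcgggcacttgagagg

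The first sequence held 3 copies of TGACG, searched on both strands, which begin 56, 40 and 14 bases before the start. Of 32851 promoter sequences of the same length in the RefSeq table, 17.8% held at least 1 copy and 0.688% held at least 3. Those shares were not matched for GC content, and the promoter was shown in part for its copies, so they are a description. The second sequence held 0 copies. Neither held the full element TGACGTCA (in 1.55% of promoters), which contains TGACG on both strands, the AP-1 motif TGANTCA (6.75%) or a CArG box, the motif of serum response factor (1.47%). The GC content was 62.4% before the first start and 46.8% before the second, against a median of 52.4% over all promoters. These starts were not placed on mm9, so the distance between them and the peaks described here was not analysed.

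The libraries differed in how many reads fell on ordinary regions, and this touches every count given here. Total counts over all regions ranged from 36857885 to 83233550 in conditioned libraries and from 36786183 to 66135693 in control libraries. The 50 highest regions held 82.5% to 90.8% of these in conditioned libraries and 87.1% to 96.6% in control libraries. Control replicates 1 and 3 stood apart, with 96.6% and 94.5% of their counts in the 50 highest regions and normalisation factors (TMM, the trimmed mean of M-values) of 0.332 and 0.509, against 1.03 to 2.01 in the other 6 libraries. Values without these 2 libraries, a choice made after seeing the data, are given beside the read counts and the peak and covered shares.

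The Homer1 window had a single region in the count table, at 94073466 to 94074619 of chromosome 13 (mm9, coordinates as deposited), 1153 bp long and 13.5 kb from the start of the window. It drew many reads for a listed region. Its mean normalised read count was higher than in 89.5% of all regions, and its deposited mean z score of 77.2 was higher than in 87.4%. The deposited table counted 6 of the 8 libraries as carriers, and 68.2% of regions were narrower.

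Read counts of the Homer1 region did not differ between the groups beyond the spread of the libraries. The counts were 1068, 973, 855 and 2187 reads in conditioned replicates 1 to 4, against 73, 1536, 201 and 1683 reads in control replicates 1 to 4. The 73 reads of control replicate 1 have an exact 95% Poisson interval of 57.2 to 91.8, which covers counting error only. The 2 low counts thus belonged to the 2 control libraries with the largest share of their reads in the 50 highest regions, and the part of this in their low counts was not tested.

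Scaled to library size with TMM factors (CPM), the Homer1 region had 13.2, 22.1, 7.39 and 13.1 CPM in conditioned replicates 1 to 4. In control replicates 1 to 4 it had 3.33, 16.6, 10.7 and 28.3 CPM. Control libraries thus gave both the lowest and the highest value, and the conditioned values lay inside their range. The means were 13.9 ± 6.08 CPM in conditioned mice, against 14.8 ± 10.6 CPM in control mice (SD, n = 4 each).

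The log2 fold change of the Homer1 region, conditioned over control, was -0.09 (SE 0.54, 95% interval -1.23 to 1.05), with an adjusted p of 0.986 (edgeR, quasi-likelihood test, Benjamini-Hochberg adjusted over all regions). That test called 0 of 11304 regions (0%) at an adjusted p below 0.05, and 881 regions (7.79%) had an unadjusted p below 0.05, while DESeq2's Wald test called 40 of 11138 regions (0.359%). The Homer1 region was among none of these, with an unadjusted p of 0.873 in edgeR and an adjusted p of 0.985 in DESeq2. Its log2 fold change was higher than that of 47.3% of regions, close to the middle of the table. The interval spans changes of about 1 on the log2 scale either way, and that width is not a limit of detection. The smallest adjusted p of any region was 0.605 in the same edgeR test. A region after the Camk2a window, at 61173492 to 61174231 of chromosome 18, had a log2 fold change of 1.11. Its edgeR adjusted p was 0.613, so changes of about that size or smaller could go uncalled with these libraries.

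**Figure D1:**
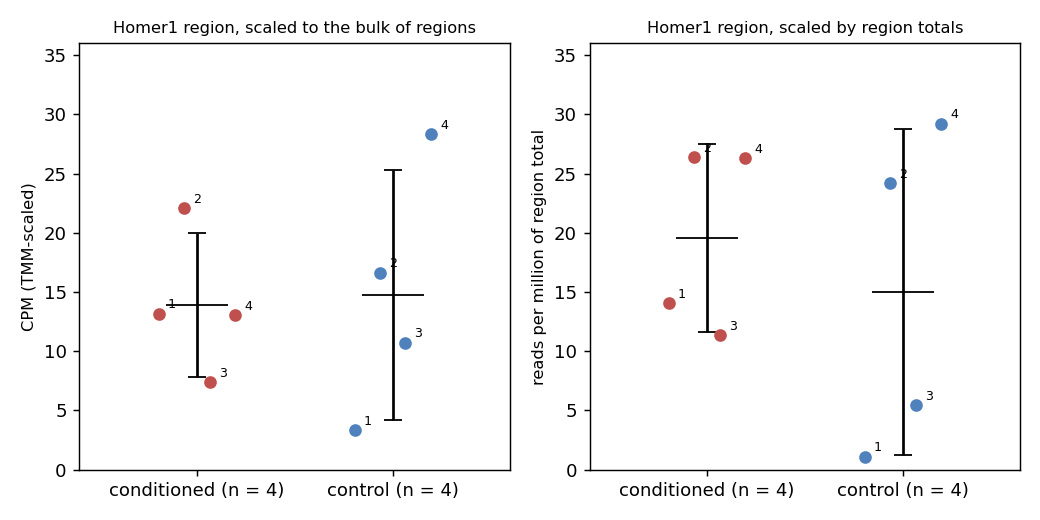
Reads of the Homer1 region in each library, with the replicate number beside each point and the bar showing mean ± SD (n = 4 each). The left axis gives CPM after TMM scaling and the right axis the reads scaled by the library's region total alone; on the left the conditioned values of 7.39 to 22.1 CPM lie within the control range of 3.33 to 28.3 CPM.

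The direction of this difference rested on single libraries. Without control replicate 4, the highest library, the log2 fold change was 0.42, without control replicate 1 it was -0.43, and without conditioned replicates 2 or 3 it was -0.40 or 0.12. With control replicates 1 and 3 both left out it was -0.70 (SE 0.44; edgeR adjusted p = 0.654). Scaling by region totals alone moved the median of all regions from -0.05 to 0.75, and the Homer1 region then had 0.38, which is 0.37 below that median.

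**Figure D2:**
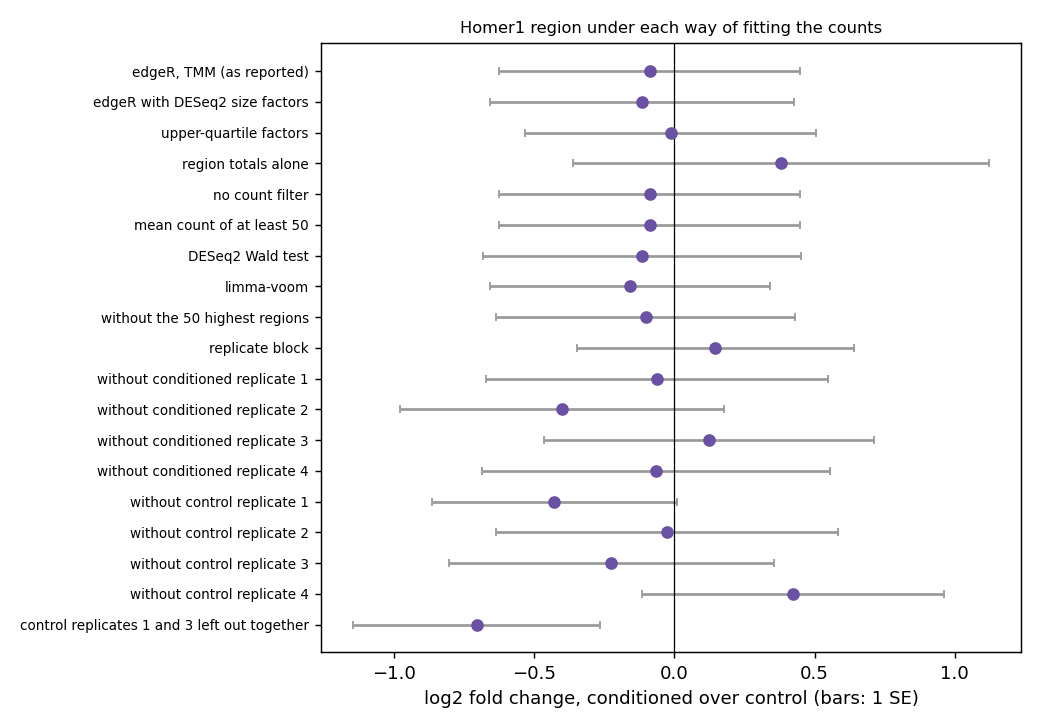
Log2 fold change of the Homer1 region (conditioned over control, horizontal axis) with 1 SE under each way of fitting the counts (rows). The estimates lie between -0.70 with control replicates 1 and 3 left out and 0.42 without control replicate 4, on both sides of 0.

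Between libraries, the Homer1 region varied more than most. The SD of its log2 CPM over the 8 libraries was 0.96, higher than in 77.6% of regions. Its place among the regions of each library shows the same spread on a scale free of normalisation. It had more reads than 89.0%, 92.1%, 59.8% and 84.7% of regions in conditioned replicates 1 to 4, against 21.4%, 91.7%, 73.6% and 97.3% in control replicates 1 to 4. Conditioned replicate 3 was the lowest of its group and control replicate 1 the lowest of all.

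The 3 regions whose log2 CPM ran most like that of the Homer1 region over the 8 libraries were one of chromosome 15, at 78707501 to 78708401 (Pearson's r of 0.989), one of chromosome 1, at 153346719 to 153348389 (r of 0.987), and one of chromosome 6, at 42322854 to 42323368 (r of 0.987). In all, 266 regions reached an r of 0.9 with it, and the median r over all regions was 0.0157. These values are a description over 8 libraries that share their depth and scaling across all regions.

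The peak lists show the same place as the strongest shared point of the Homer1 window. A z score was given by the authors for each peak, and since its scaling is not stated, z values are not compared between libraries. The cuts at z of 10 and 30 were still counted across the lists, and they need not be equally strict in each. On the Homer1 region, the z of 29.5 in control replicate 3 missed the cut of 30 with 4.48% of its list higher. In the Camk2a window, a z of 38.8 in control replicate 4 passed it with 4.11% higher. Numbers of libraries at a cut are thus a description. A peak lay on the Homer1 region in 7 of the 8 libraries. It had a z of 75.3, 61.2, 59.6 and 109.2 in conditioned replicates 1 to 4 and of 96.4, 29.5 and 106.3 in control replicates 2, 3 and 4. It was the highest peak of the window in 5 of these libraries and second in conditioned replicate 3 and control replicate 3.

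Within each list, only 0.213%, 1.63%, 1.45% and 0.304% of peaks had a higher z in conditioned replicates 1 to 4, and 0.207%, 4.48% and 0.135% in control replicates 2, 3 and 4. Control replicate 1 listed no peak on the region. Its nearest peak, with a z of 13.5, began at 94074631, just past the end of the region. The same library had no peak of z of at least 30 anywhere in either window.

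Every library with a peak on the Homer1 region had a broad one there, whereas most peaks of the window were narrow. Peaks are listed in steps of 50 bp, and 88.1% of the Homer1 window's peaks were a single step. Listed peaks covered 60.7%, 69.4%, 62.8% and 65.0% of the Homer1 region in conditioned replicates 1 to 4, against 39.3%, 65.0% and 56.4% in control replicates 2, 3 and 4. In control replicate 2 the region was split over 3 peaks and in conditioned replicate 3 over 2. The highest of each was a single step. Most of the covered length in these 2 libraries came from a wider peak of lower z. Its z was 27.1 in conditioned replicate 3 and 25.3 in control replicate 2. The other 5 libraries with a peak there had 1 of 650 to 800 bp. Broad peaks also lay elsewhere in the window, the widest 1000 bp in conditioned replicate 1 and in control replicate 1. Breadth thus did not separate the groups.

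**Figure D3:**
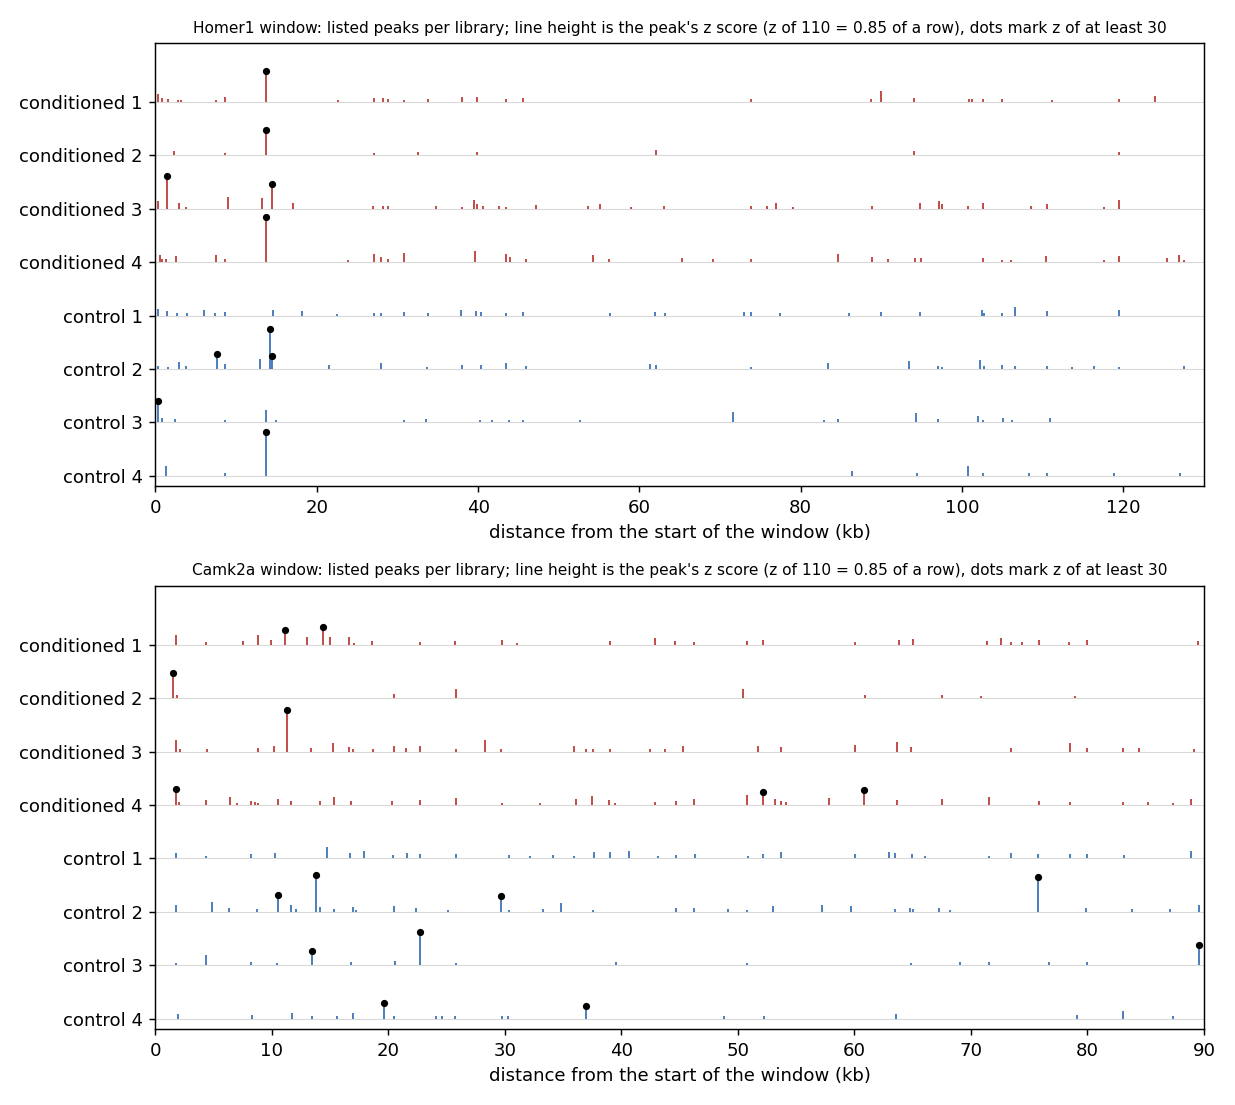
Listed peaks of each library along the Homer1 window (top) and the Camk2a window (bottom), by distance from the start of the window in kb; line height gives the peak's z and dots mark z of at least 30. In the Homer1 window strong peaks gather between 13.7 and 14.4 kb in 6 libraries, whereas in the Camk2a window no merged interval holds one in more than 2 libraries.

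Elsewhere in the Homer1 window peaks were weaker in most libraries, and most were less often shared. Peaks of the 8 libraries were merged where they lay within 50 bp of each other, which gave 92 intervals. Of these, 52 (56.5%) were listed in 1 library and 1 was listed in all 8. The latter did not hold the peak on the Homer1 region, whose interval was listed in 7. Intervals with more conditioned than control libraries numbered 38, those with more control libraries also 38, and 16 were even. No interval was listed in every library of one group but absent from the other.

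Apart from the main peak, the intervals with the most libraries at a z of at least 10 were these. The one at 94060281 to 94061181, at the very start of the window, was listed in 6 libraries (3 conditioned, 3 control), 5 of them at z of at least 10 (3 conditioned, 2 control). The next, at 94061315 to 94062806, was the one listed in all 8 libraries, with z of 8.15, 10.8, 79.9 and 14.7 in conditioned replicates 1 to 4 and of 10.8, 6.05, 8.40 and 24.4 in control replicates 1 to 4. In conditioned replicate 3 this was the highest peak of the window, ahead of the one on the Homer1 region, and it was a single step. The interval at 94099540 to 94099956 was listed in 5 libraries (4 conditioned, 1 control). Right after it, an interval at 94100196 to 94100431 was listed in 3 libraries with the opposite lean (0 conditioned, 3 control). The interval at 94154016 to 94154166 was listed in 3 libraries (3 conditioned, 0 control). The last was 1 of 4 intervals tied at 3 libraries with z of at least 10 and was named for its better mean rank of z within the lists. The others of the tie were at 94162531 to 94162831 (7 libraries, 3 conditioned and 4 control), 94170466 to 94170590 (5 libraries, 2 conditioned and 3 control) and 94179416 to 94179556 (6 libraries, 4 conditioned and 2 control). The interval at 94154016 had z between 10.4 and 11.3, and control replicate 3 had a peak with z of 21.7 just past its end, at 94154246.

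**Figure D4:**
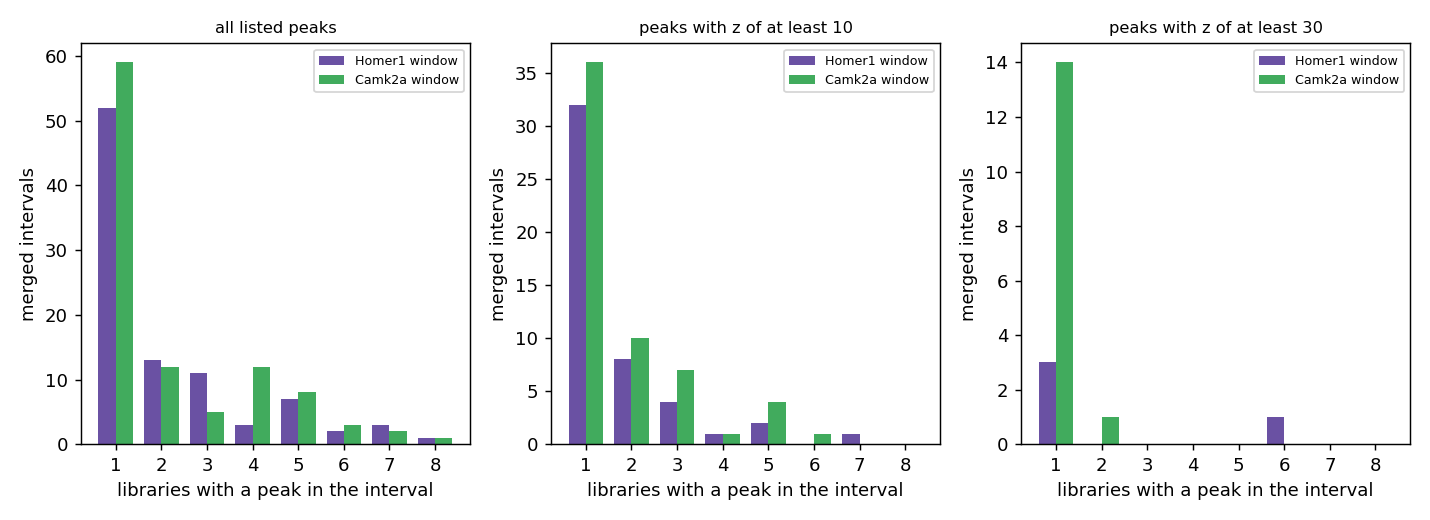
Number of merged intervals (vertical axis) by the number of libraries with a peak in them (horizontal axis), in the Homer1 and Camk2a windows, for all listed peaks and for z of at least 10 and 30. At z of at least 30 the Homer1 window had 1 interval shared by 6 libraries, and no Camk2a interval was shared by more than 2.

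In the Camk2a window, no place had a peak of z of at least 30 in more than 2 libraries, where the Homer1 region had one in 6. No region of the count table overlapped it, so it has no read counts here. Its 8 lists held 16 peaks with z of at least 30, 7 in conditioned and 9 in control libraries, which fell into 15 merged intervals. Of these, 14 had such a peak in 1 library only. The remaining one, at 61081152 to 61081902 on chromosome 18, had it in 2 conditioned libraries, with z of 37.0 in conditioned replicate 1 and 100.3 in conditioned replicate 3. The same cut in the Homer1 window gave 10 peaks in 4 intervals, 1 of them shared by 6 libraries (4 conditioned, 2 control).

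The highest peak of the Camk2a window lay in a different place in almost every library. It began at 61084352, 61071492, 61081331 and 61071763 in conditioned replicates 1 to 4 and at 61084722, 61083787, 61092698 and 61089643 in control replicates 1 to 4. All these starts fell in the first 23 kb of the window, from 1.49 to 22.7 kb. Their z was 43.1, 62.2, 100.3 and 38.5 in conditioned replicates 1 to 4 and 26.5, 88.7, 81.1 and 38.8 in control replicates 1 to 4. They spanned 50 to 150 bp, and 6 of the 8 were a single step.

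Peaks of the Camk2a window recurred mostly at lower z. The window gave 102 merged intervals, of which 59 (57.8%) were listed in 1 library and 1 in all 8. That one lay at 61071748 to 61071943, with z of 22.7, 8.28, 29.2 and 38.5 in conditioned replicates 1 to 4 and of 14.0, 15.5, 5.36 and 12.0 in control replicates 1 to 4. In conditioned replicate 2 the highest peak of the window, with z of 62.2, lay just before it at 61071492. With peaks merged within 150 bp, a distance added after seeing the data, both fell into 1 interval at 61071492 to 61072131, listed in all 8 libraries and at z of at least 10 in 7 (4 conditioned, 3 control). Because z is not comparable between lists, these values are a description.

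Of the other Camk2a intervals with the most libraries at z of at least 10, the one at 61079952 to 61080802 was listed in 6 libraries (3 conditioned, 3 control) and that at 61086602 to 61087102 in 7 (3 conditioned, 4 control). That at 61133437 to 61134172, nearer the far end of the window, was listed in 6 libraries (3 conditioned, 3 control), and the strong place at 61081152 in 5 (3 conditioned, 2 control). Conditioned replicate 2 was missing from all 4 of these; it had the shortest list of all, with 379249 peaks, and 9 peaks in the window. Across the 102 intervals, 42 had more conditioned libraries, 42 more control libraries and 18 as many of each, and again none was listed in every library of one group but absent from the other.

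The share of a library's peaks that fell in the Homer1 window did not differ between the groups beyond their spread. It was 3.56, 2.37, 3.93 and 3.56 peaks per 100000 listed peaks in conditioned replicates 1 to 4, against 3.77, 4.34, 5.03 and 2.13 in control replicates 1 to 4. Means were 3.36 ± 0.678 in conditioned mice, against 3.82 ± 1.24 in control mice (SD, n = 4 each). The difference of -0.465 (SE 0.705) had an exact permutation p of 0.543, two-sided, and a Benjamini-Hochberg value of 0.686 over the 4 shares tested. Without control replicates 1 and 3 the difference was 0.118 (exact permutation p = 0.933). With 4 libraries against 4 the smallest p such a test can give is 0.0286.

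In the Camk2a window the peak share was 4.05, 2.37, 3.72 and 4.17 per 100000 in conditioned replicates 1 to 4 and 4.00, 5.02, 3.72 and 3.88 in control replicates 1 to 4. The groups overlapped, with means of 3.58 ± 0.825 in conditioned mice, against 4.15 ± 0.587 in control mice (SD, n = 4 each; difference -0.576, SE 0.506; exact permutation p = 0.457, Benjamini-Hochberg value 0.686). Without control replicates 1 and 3 the difference was -0.872. Conditioned replicate 2 was the lowest library in this window and the lowest conditioned one in the Homer1 window.

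The covered share, the window's covered bp per Mb of a library's covered length, gave no difference beyond the spread either. In the Homer1 window it was 24.4 ± 3.28 bp in conditioned mice, against 26.4 ± 7.35 bp in control mice (SD, n = 4 each; difference -2.02, SE 4.03; exact permutation p = 0.657, Benjamini-Hochberg value 0.686). In the Camk2a window it was 21.1 ± 11.3 bp in conditioned mice, against 17.5 ± 3.04 bp in control mice (SD, n = 4 each; difference 3.63, SE 5.85; exact permutation p = 0.686, Benjamini-Hochberg value 0.686). The second difference rested on conditioned replicate 1, which had 36.5 bp against 9.29 to 19.4 bp in the other conditioned libraries, and it was -1.50 without that library. Without control replicates 1 and 3 the covered share differed by -1.67 bp in the Homer1 window and by 1.77 bp in the Camk2a window. Conditioned replicate 1 had 7 of its 33 Camk2a peaks wider than a single step, the widest 850 bp.

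**Figure D5:**
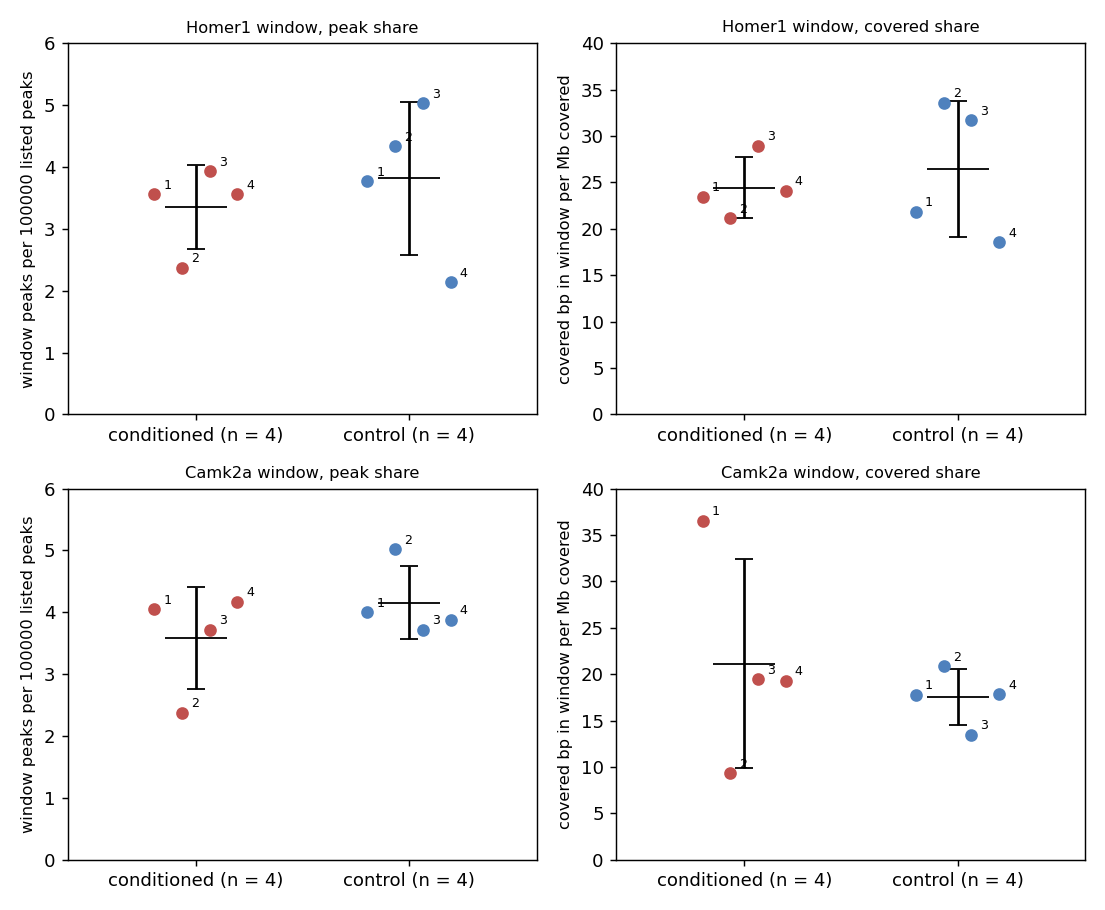
Share of listed peaks (left) and of covered length (right) that fell in the Homer1 window (top) and the Camk2a window (bottom), per library with its replicate number and with mean ± SD per group (n = 4 each). Conditioned and control values overlap in all 4 panels, and conditioned replicate 1 stands highest at 36.5 bp per Mb in the Camk2a covered share.

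Set against their chromosomes, the windows were not rich in peaks. The Homer1 window held 0.461 to 0.752 times as many peaks per kb as chromosome 13 in conditioned libraries and 0.412 to 0.966 times as many in control libraries, below 1 in all 8. The Camk2a window held 0.641 to 1.13 times as many as chromosome 18 in conditioned libraries and 0.993 to 1.35 times as many in control libraries, above 1 in 5 of the 8. Median z in the windows ran from 7.83 to 10.5 in conditioned and from 6.82 to 10.4 in control libraries.

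The nearest regions of the count table lay outside the Camk2a window, 135308 bp before it and 13492 bp after it. The later one, at 61173492 to 61174231 on chromosome 18, had 8.34 ± 2.18 CPM in conditioned mice, against 3.88 ± 1.43 CPM in control mice (SD, n = 4 each), without overlap of the groups, which was seen in 2.40% of all regions. Its log2 fold change of 1.11 (SE 0.46) had an edgeR adjusted p of 0.613 and did not pass. It was 1.61 without control replicates 1 and 3 and 2.15 with region totals alone (1.40 above the median of that fit), with edgeR adjusted p-values of 0.559 and 0.450. The earlier one, at 60934222 to 60934692, had 12.2 ± 7.14 CPM in conditioned mice, against 5.78 ± 2.22 CPM in control mice (SD, n = 4 each; log2 fold change 1.08, SE 0.50; edgeR adjusted p = 0.634), and its groups overlapped. It had 0.97 without control replicates 1 and 3 and 1.88 with region totals alone (1.13 above that median). In the gene order of RefSeq (GRCm38.p6) the protein-coding neighbours of Camk2a are Arsi, 5801 bp before it, and Slc6a7, 7224 bp after it, while those of Homer1 are Tent2 and Jmy. Camk2a is 62.8 kb long in that build. If the spacing is alike in mm9, the window of 90 kb reaches past these gaps into at least 1 neighbour. Peaks near the ends of the Camk2a window may thus belong to another gene. The interval at 61071748, listed in all 8 libraries, is among those near an end. This was not resolved without an mm9 annotation.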

How the data were processed

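The authors deposited raw read counts, without normalisation, for 11304 regions in 8 libraries, and 0 count columns were left unused. Z scores were deposited by the authors as 1 score per peak in each of 8 lists, made per sample with a lowest z of 5, and as a mean score per region with a number of carriers. Bowtie2 and the build mm9 are named, per the submitters' processing notes. Peak caller, counter and read filters: not given in the sources used here.

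All regions were tested with edgeR 4.0.16 under R 4.3.3 (quasi-likelihood fit, group as the only term, TMM factors, filterByExpr with minimum count 10 and minimum total 15, which removed 0 regions; two-sided; threshold 0.05). The SE is the fold change over the square root of F. The test was tested on simulated data. DESeq2 1.42.0 and limma 3.58.1 (voom) were alternatives. Peaks were handled in Python 3.11.15 with pandas 2.3.3; 50 bp, the step of the lists, were added to the end coordinate of each peak, an overlap of 1 bp counted, and group labels were permuted over 70 arrangements. Each count rests on region totals of 36786183 to 83233550 reads. Poisson intervals cover counting error only and not the spread between animals. No molecular identifiers tell copies of a molecule apart, so these intervals do not allow for copied reads.

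All regions in the windows, or the nearest outside where there was none, were named, with each library's highest peak and the 5 merged intervals per window with the most libraries at z of at least 10. Windows, members and rules were chosen with earlier results of these data known. Without an mm9 annotation, a list of other postsynaptic genes and hippocampal markers were not analysed here. Labels describe separate animals, so p-values measure the spread between animals and preparations together.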

Additional observations from a re-analysis of the deposited data

How the results depend on the processing

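Leaving out control replicates 1 and 3 together was chosen after seeing the data. The 0 regions called in the count table became 6 with region totals alone and 40 with DESeq2's Wald test and stayed at 0 in the other 16 alternatives, each library left out included; the cause was not tested. The log2 fold change of the Homer1 region turned to 0.38 with region totals alone, still 0.37 below the median of 0.75 in that fit, and to 0.15 with the replicate block. It ran from -0.43 to 0.42 over fits without 1 library and had adjusted p-values from 0.654 to 0.999 over all 18 alternatives. The cause was not tested. Filters on low counts removed no region and test nothing. The Camk2a window had no region and so no value in any fit. Shares kept their direction except as follows. Without a denominator the group difference was 2.5 peaks in the Homer1 window, 262.5 covered bp there, and 2 peaks in the Camk2a window. Without control replicates 1 and 3 the Homer1 peak share differed by 0.118, and with z of at least 30 the Homer1 covered share differed by 57.2. Over runs without 1 library the Homer1 differences ran from -1.03 to -0.0608 (peaks) and from -4.65 to 0.362 (covered), and the Camk2a differences from -0.773 to -0.175 and from -1.50 to 7.58. No exact p of these was below 0.0857. Replicate numbers are shared by the groups, and so are the numbers in the titles (1, 4, 6 and 9). Same-numbered libraries had correlations of 0.161, 0.0482, -0.0631 and 0.272 of their deviations from group means. Pairs of unlike number ran from -0.341 to 0.285. With so few libraries these values cannot show whether same-numbered libraries were paired. The fit with the replicate block called 0 regions at an adjusted p below 0.05, as the main fit did, so the calls do not decide it either. Peaks were also merged within 150 bp in place of 50 bp, added after seeing the data. The Homer1 peak then took in the peak of control replicate 1 and was listed in all 8 libraries. So was the interval at the start of the Homer1 window, at 94060281 to 94063156. Both had z of at least 10 in all 8 libraries. At z of at least 30 the Homer1 peak had 6 libraries and the interval at the window's start had 2. The most libraries sharing a Camk2a interval at z of at least 30 stayed at 2. Both regions beside the Camk2a window kept their direction without passing in all 18 alternatives, with adjusted p-values from 0.443 to 0.989 (earlier region) and from 0.316 to 0.989 (later region). The fewest reads on ordinary regions were in control replicates 1 and 3, with median counts of 142 and 115 per region, against 1069 in conditioned replicate 4; control replicate 1 had 66135693 counts in all.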
